A study of Mus musculus with 2 samples.

Results

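The respiratory chain genes described here are those whose symbols name a subunit of complexes I to V of oxidative phosphorylation, encoded by mitochondrial DNA or by nuclear DNA. They were found by symbol in both count matrices: mt-Nd, mt-Co, mt-Cytb, mt-Atp, Nduf, Uqcr, Sdha to Sdhd, Cox4 to Cox8 and Atp5, leaving out symbols that end in a pseudogene mark and the Ndufaf assembly factors. The rule gave 102 of 52636 genes, 13 of them mitochondrially encoded and 89 nuclear. It also took in Atp5s, which is not a subunit of the ATP synthase, and the retrocopies Cox6c2, Ndufa11b, Ndufb4c and Ndufs6b.

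The cells came from intestines of 2 mouse embryos of stage E18.5 on the C57BL/6 background, 1 embryo per library. Both embryos lacked Mlkl, the executor of necroptosis. One carried no other labelled allele and is called Mlkl-null here, and the other was also Casp8 C362A/C362A, homozygous for a substitution that removes the active-site cysteine of the cell-death protease caspase-8. It is called Casp8-mutant. Each genotype is thus 1 animal, so no test between genotypes was possible, no p-value is given, and intervals cover counting error only, not the spread between embryos. Xist, transcribed from the inactive X chromosome, had 1 UMI in Mlkl-null and 5990 in Casp8-mutant epithelial-like cells, and the Y-linked Ddx3y had 224 and 1, so sex and genotype cannot be told apart in these embryos. The labels name the whole intestine in one place and the small intestine in another.

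The respiratory chain passes electrons from NADH through complex I, and from succinate through complex II, to ubiquinone, then through complex III and cytochrome c to complex IV, where oxygen is reduced. Complexes I, III and IV pump protons, and complex V, the ATP synthase, uses the gradient to make ATP. Mitochondrial DNA encodes subunits of all complexes but complex II, and the nuclear genome encodes the rest. In the intestine, absorptive enterocytes oxidise fatty acids and other fuels in mitochondria to drive nutrient uptake.

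Barcodes numbered 1478 for Mlkl-null and 1014 for Casp8-mutant, with 6290008 and 2804929 unique molecular identifiers (UMIs, each counting a captured transcript). After removal of cells under 500 genes and called doublets, 1435 and 873 cells remained, with medians of 3707 and 1957 UMIs, so the Casp8-mutant values rest on shallower cells. The libraries shared 2 barcodes. Cells were grouped by marker genes into epithelial-like (1182 Mlkl-null and 563 Casp8-mutant cells), myeloid-like (62 and 128), stromal-like, which joins fibroblast-like and smooth muscle-like clusters (63 and 58), and smaller classes. The 10 leading genes of the fibroblast-like cluster held the fibroblast markers Col1a1 and Dcn, and also Msln, a mesothelial marker, so that its name is uncertain. The epithelial-like clusters separated by library: 1171 of the Mlkl-null cells lay in clusters 2, 3, 4, 6, 7, 11 and 18, and the Casp8-mutant cells in clusters 10, 15, 17 and 20. The class therefore compares different clusters. Myeloid-like cells also divided, with cluster 14 holding 51 Mlkl-null and 0 Casp8-mutant cells and cluster 19 holding 11 and 128.

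Respiratory chain transcripts were lower in Casp8-mutant than in Mlkl-null epithelial-like cells, and more so those of mitochondrial than those of nuclear origin. The nuclear-encoded genes summed to 280921 UMIs in Mlkl-null and 70421 in Casp8-mutant cells, levels of 52891 (95% exact Poisson interval 52696 to 53087) and 35771 (35507 to 36036) CPM, that is, UMIs per 1000000 UMIs of the class. Their ratio of Casp8-mutant over Mlkl-null was 0.676 (95% conditional exact interval 0.671 to 0.682). The mitochondrially encoded genes summed to 49451 and 8652 UMIs, levels of 9311 and 4395 CPM and a ratio of 0.472 (0.461 to 0.483). The nuclear-encoded direction did not hold within the epithelial-like clusters that contained cells of both libraries, clusters 10 and 15, where the few Mlkl-null cells had the lower level. In single cells the median share of UMIs from the nuclear-encoded genes was 5.32% in Mlkl-null and 3.24% in Casp8-mutant cells, with lower and upper quartiles of 4.56% and 6.21% in Mlkl-null and of 2.63% and 3.96% in Casp8-mutant cells. For the mitochondrially encoded genes the median shares were 0.901% and 0.416%. These ranges over cells are not replicate error, since all cells of a library come from 1 embryo.

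A gene was called higher or lower when its ratio was at least 1.5-fold from 1 and its interval left out 1, and it counted as measured with at least 20 UMIs over both libraries. Of 84 measured nuclear-encoded genes, 44 were lower and 4 higher in Casp8-mutant epithelial-like cells, and 36 were neither. Over all 13907 genes measured in these cells, 27.4% were lower and 22.6% higher by the same rule. The median log2 ratio was -0.61 for the nuclear-encoded genes and -0.17 for all genes measured, which include non-coding genes and pseudogenes. For coding genes it was -0.42 in 9270 genes without a near-identical copy, as defined below, and -0.07 in 1374 with one. Of the 13 mitochondrially encoded genes, 8 were lower and 0 higher, with a median log2 ratio of -0.76. Scaling by the median of gene ratios, in place of the total, moved every log2 ratio up by 0.19. The nuclear-encoded calls were then 17 lower and 6 higher, and the summed ratios 0.773 and 0.540, both still below 1. The share of all genes called under that scaling is not given, so these 2 counts have no background beside them.

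**Figure D1:**
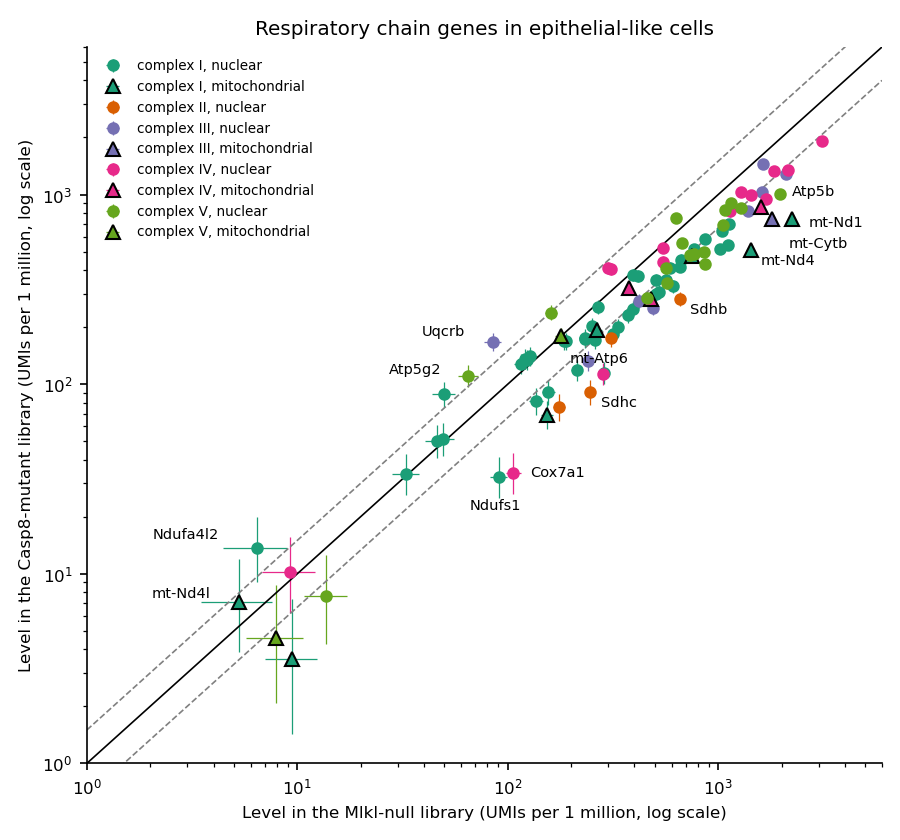
Level of each measured respiratory chain gene in epithelial-like cells, in CPM (UMIs per 1000000), in the Mlkl-null library (x axis) and the Casp8-mutant library (y axis), both on log scales, 1 embryo each. Colours give the complex, triangles the mitochondrially encoded genes, bars exact Poisson intervals, the solid line equal levels and the dashed lines 1.5-fold. The 52 lower genes lie below the lower dashed line, among them mt-Nd1 at 2248 and 746, while 4 genes lie above the upper one.

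Promoter sequences of 4 nuclear-encoded genes are shown because many of these genes were lower together, and because elements for NRF1, a regulator of respiratory genes, occur in several. RefSeq promoter windows on GRCm38.p6, from 250 bases before to 50 after a transcript start, were matched to 67 of the 89 nuclear-encoded genes, 72 windows in all. The letters GCATGCGC, the core of the NRF1 site, were found on either strand in 10 of these windows (13.9%) and in 2.71% of all 32851 windows of that length. The ETS-family letters CCGGAAGT were found in 6.94% of the genes' windows and 3.89% of all, and a YY1 element in 6.94% and 0.852%. The 4 sequences below run 5′ to 3′ and stop before the GENCODE M21 start of the gene, with GCATGCGC or its reverse complement in capitals. Cox6a1 lies at chr5:115348982-115349208 on the minus strand, Ndufa6 at chr15:82354323-82354541 on the minus strand, Ndufa11 at chr17:56717512-56717761 on the plus strand and Cox7a1 at chr7:30183921-30184143 on the plus strand.
Cox6a1: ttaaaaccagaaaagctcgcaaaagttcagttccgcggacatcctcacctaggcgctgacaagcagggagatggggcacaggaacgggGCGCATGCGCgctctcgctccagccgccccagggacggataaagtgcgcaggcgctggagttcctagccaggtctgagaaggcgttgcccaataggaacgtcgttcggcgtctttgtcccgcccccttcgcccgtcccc
Ndufa6: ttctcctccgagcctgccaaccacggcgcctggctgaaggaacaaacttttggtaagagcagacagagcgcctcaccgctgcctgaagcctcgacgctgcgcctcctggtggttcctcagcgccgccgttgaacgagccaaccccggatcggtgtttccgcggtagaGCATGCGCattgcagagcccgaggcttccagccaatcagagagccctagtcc
Ndufa11: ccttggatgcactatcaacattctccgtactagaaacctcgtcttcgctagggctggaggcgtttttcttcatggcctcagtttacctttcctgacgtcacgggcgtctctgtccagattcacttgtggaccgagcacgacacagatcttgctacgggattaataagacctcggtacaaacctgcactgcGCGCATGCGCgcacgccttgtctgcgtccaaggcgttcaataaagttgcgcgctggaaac
Cox7a1: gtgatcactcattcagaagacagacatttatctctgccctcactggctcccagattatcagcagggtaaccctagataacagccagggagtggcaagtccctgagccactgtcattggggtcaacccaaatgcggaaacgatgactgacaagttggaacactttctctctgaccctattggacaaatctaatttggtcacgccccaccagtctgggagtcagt
Cox6a1 and Ndufa6 carry the letters and were 1.77-fold and 1.98-fold lower, Ndufa11 carries them and had a ratio of 0.901, and Cox7a1, with the lowest ratio among the measured genes, does not have them in this window. These 4 were chosen after their values were seen. Among measured genes with the NRF1 letters, 6 of 10 were lower and 1 higher, with a median log2 ratio of -0.62. Among those matched without them, 26 of 55 were lower and 0 higher, with a median of -0.57. Both counts stand beside 27.4% lower and 22.6% higher of all genes measured. A match of letters is a description and does not show binding.

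In GENCODE M21 the mitochondrially encoded genes lie on chromosome MT, with mt-Nd1 at 2751 to 3707, mt-Nd4 at 10167 to 11544, mt-Cytb at 14145 to 15288, mt-Co1 at 5328 to 6872 and mt-Atp6 at 7927 to 8607. Complex I, the NADH dehydrogenase, gave 7 mitochondrially encoded and 41 measured nuclear-encoded genes. Its mitochondrial genes summed to 25808 UMIs in Mlkl-null and 3945 in Casp8-mutant epithelial-like cells, a ratio of 0.412 (0.399 to 0.426). mt-Nd1, a core membrane subunit, had 11938 and 1468 UMIs, levels of 2248 and 746 CPM, and was 3.01-fold lower (2.85 to 3.18). mt-Nd4, a proton-pumping membrane subunit, had 7574 and 1003 UMIs and was 2.80-fold lower (2.62 to 2.99). The other antiporter-like subunit genes were closer to 1. mt-Nd2 had 3988 and 938 UMIs with a ratio of 0.635 (0.590 to 0.682), and mt-Nd5 1414 and 379 UMIs with a ratio of 0.724 (0.644 to 0.811). mt-Nd6, encoded on the other strand, was 2.22-fold lower (1.85 to 2.69), with 816 and 136 UMIs. It overlaps mt-Nd5 at one end in GENCODE M21, and no source used here states whether strand was used in counting. The short genes mt-Nd3 (50 and 7 UMIs, ratio 0.401, interval 0.144 to 0.837) and mt-Nd4l (28 and 14 UMIs, ratio 1.37, interval 0.656 to 2.65) had few counts, and the direction of mt-Nd4l was not detectable at this depth.

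The nuclear-encoded genes of complex I summed to 84753 and 20797 UMIs, a ratio of 0.662 (0.652 to 0.672), and 19 of 41 were lower and 2 higher. This count, and those of accessory genes and other complexes below, stand beside 27.4% lower and 22.6% higher of all genes measured. Among the core genes, Ndufs1, the largest core subunit with several iron-sulphur clusters, had 481 and 64 UMIs and was 2.77-fold lower (2.14 to 3.67). Ndufv1 and Ndufv2, the flavoprotein pair where NADH is oxidised, had ratios of 0.584 and 0.557, and Ndufs7 a ratio of 0.625. Not called were Ndufs8 with a ratio of 0.807 (0.719 to 0.902) and Ndufs3, with only 174 and 66 UMIs, 1.03 (0.759 to 1.37). These core genes thus did not differ by one common factor.

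Accessory genes of complex I, which surround the core, gave a ratio of 0.670 (0.659 to 0.680), with 14 of 34 lower. Ndufa2 and Ndufb9, with the most UMIs of the complex, had 5978 and 1374, and 5880 and 1062 UMIs, and were 1.61-fold (1.52 to 1.71) and 2.05-fold (1.92 to 2.19) lower. Ndufa5 had a ratio of 0.964 (0.885 to 1.05) and Ndufa12 of 0.955 (0.860 to 1.06), with 2081 and 743 and with 1419 and 502 UMIs. Both intervals hold 1 and leave out any 1.5-fold difference, but Ndufa5 stood at 0.638 (0.554 to 0.729) with clustering at Leiden resolution 0.5, which changed the cells in the class to 1179 and 371. Ndufa4, placed here by its symbol although its protein is found with complex IV, had a ratio of 0.682 (0.632 to 0.733). Its paralogue Ndufa4l2, a hypoxia-responsive gene, was higher at a ratio of 2.15 (1.24 to 3.66), on 34 and 27 UMIs in epithelial-like cells. Its level in stromal-like cells was 130.1 and 138 CPM, against 6.40 and 13.7 in epithelial-like cells, and the part of stromal RNA in the epithelial value was not tested. The X-linked genes Ndufa1, Ndufb11 and, in complex IV, Cox7b had ratios of 0.743, 0.585 and 0.713, so they shared the direction of the autosomal genes.

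Complex II, succinate dehydrogenase, also works in the citric acid cycle, and all 4 of its genes are nuclear. It was the complex with the lowest ratio among the nuclear-encoded sums: 7360 UMIs in Mlkl-null and 1226 in Casp8-mutant cells, levels of 1386 (1354 to 1418) and 623 (588 to 659) CPM and a ratio of 0.450 (0.423 to 0.477). All 4 genes were lower. The flavoprotein gene Sdha had 928 and 149 UMIs and was 2.30-fold lower (1.94 to 2.76). Sdhb, the iron-sulphur subunit, had 3483 and 553 UMIs and was 2.33-fold lower (2.13 to 2.56). Of the membrane anchors, Sdhc had 1309 and 178 UMIs and was 2.72-fold lower (2.33 to 3.21), and Sdhd had 1640 and 346 UMIs and was 1.75-fold lower (1.56 to 1.98).

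Complex III, the cytochrome bc1 complex, has 1 mitochondrially encoded subunit, cytochrome b. mt-Cytb had 9600 and 1462 UMIs, levels of 1807 and 743 CPM, and was 2.43-fold lower (2.30 to 2.57). The 8 nuclear genes summed to a ratio of 0.679 (0.665 to 0.694), with 6 lower and 1 higher. The core-protein genes Uqcrc1 and Uqcrc2 had ratios of 0.516 (0.468 to 0.568) and 0.552 (0.481 to 0.630), and the Rieske iron-sulphur gene Uqcrfs1 a ratio of 0.658 (0.598 to 0.723). Of the small subunits, Uqcrq had 11144 and 2540 UMIs with a ratio of 0.615 (0.589 to 0.642), whereas Uqcr10, with 8651 and 2843 UMIs, stood at 0.887 (0.850 to 0.925). Uqcrb, which binds the quinone-reducing side, went the other way, with 452 and 328 UMIs and a ratio of 1.96 (1.69 to 2.26). Its counts may be divided with near-identical copies, described below.

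Complex IV, cytochrome c oxidase, gave 3 mitochondrially encoded genes for its catalytic core and 14 measured nuclear genes. mt-Co1, the subunit with the haem-copper centre, had 8506 and 1697 UMIs and was 1.86-fold lower (1.76 to 1.96). mt-Co3 had 2538 and 556 UMIs and was 1.69-fold lower (1.54 to 1.86), and mt-Co2, which receives electrons from cytochrome c, had 2004 and 631 UMIs with a ratio of 0.850 (0.776 to 0.929). The nuclear genes summed to a ratio of 0.701 (0.690 to 0.712), with 5 of 14 lower and 0 higher. The lower count is not far from the 27.4% lower of all genes measured, where 22.6% were higher. Cox4i1, the regulatory subunit with the most UMIs of the complex, had 16474 and 3779 UMIs, levels of 3102 and 1920 CPM, and was 1.62-fold lower (1.56 to 1.67). Cox8a had 11369 and 2643 UMIs and was 1.59-fold lower (1.53 to 1.66), and Cox7c, with 2902 and 1034 UMIs, had a ratio of 0.962 (0.895 to 1.03). Cox7a1, the heart and muscle isoform, had 564 and 67 UMIs and was 3.10-fold lower (2.42 to 4.08), while its broadly expressed counterpart Cox7a2, with 6803 and 2026 UMIs, had a ratio of 0.804 (0.764 to 0.844). Cox7a2l, which takes part in supercomplex assembly, had 1513 and 224 UMIs and was 2.50-fold lower (2.17 to 2.89). Cox6a1 was 1.77-fold lower (1.69 to 1.87), Cox6b1 had a ratio of 0.694 (0.660 to 0.729) and Cox6b2 49 and 20 UMIs with a ratio of 1.12 (0.620 to 1.89). Cox4i2, Cox6a2, Cox7b2, Cox8b and Cox8c were not measured in these cells, with 5 and 7, 4 and 1, 0 and 0, 1 and 0, and 0 and 0 UMIs. A count of 0 allows up to 3 UMIs in either library.

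Complex V, the ATP synthase, had 2 mitochondrially encoded and 17 nuclear genes. mt-Atp6, part of the proton channel, had 953 and 352 UMIs, levels of 179 and 179 CPM and a ratio of 0.997 (0.879 to 1.13), unlike the lower mt-Nd1, mt-Nd4 and mt-Cytb. mt-Atp8, whose frame overlaps that of mt-Atp6, had 42 and 9 UMIs and a ratio of 0.603 (0.247 to 1.20). The nuclear genes had a summed level 1.45-fold lower (1.43 to 1.48), with 10 of 17 lower and 1 higher. The catalytic beta and alpha subunit genes Atp5b and Atp5a1 were both lower. Atp5b had 10423 and 1975 UMIs and a ratio of 0.511 (0.487 to 0.536), and Atp5a1 had 4600 and 852 UMIs, levels of 866 and 433 CPM (interval of the ratio 0.464 to 0.538). Atp5e, of the central stalk, had 6834 and 1662 UMIs and was 1.52-fold lower (1.44 to 1.61). The 3 genes for the c-ring protein, which encode the same mature protein, differed: Atp5g3 had a ratio of 0.656 (0.617 to 0.696), Atp5g1 of 1.19 (1.12 to 1.27) and Atp5g2 of 1.71 (1.43 to 2.03). Atp5g2 had only 345 and 218 UMIs, and Atp5g1 3329 and 1473. At Leiden resolution 0.5 Atp5g2 stood at 1.06 (0.793 to 1.38) and was no longer called. Atpif1, the inhibitor of the synthase and outside the symbol rule, had 7971 and 2054 UMIs and a ratio of 0.695 (0.662 to 0.730).

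**Figure D2:**
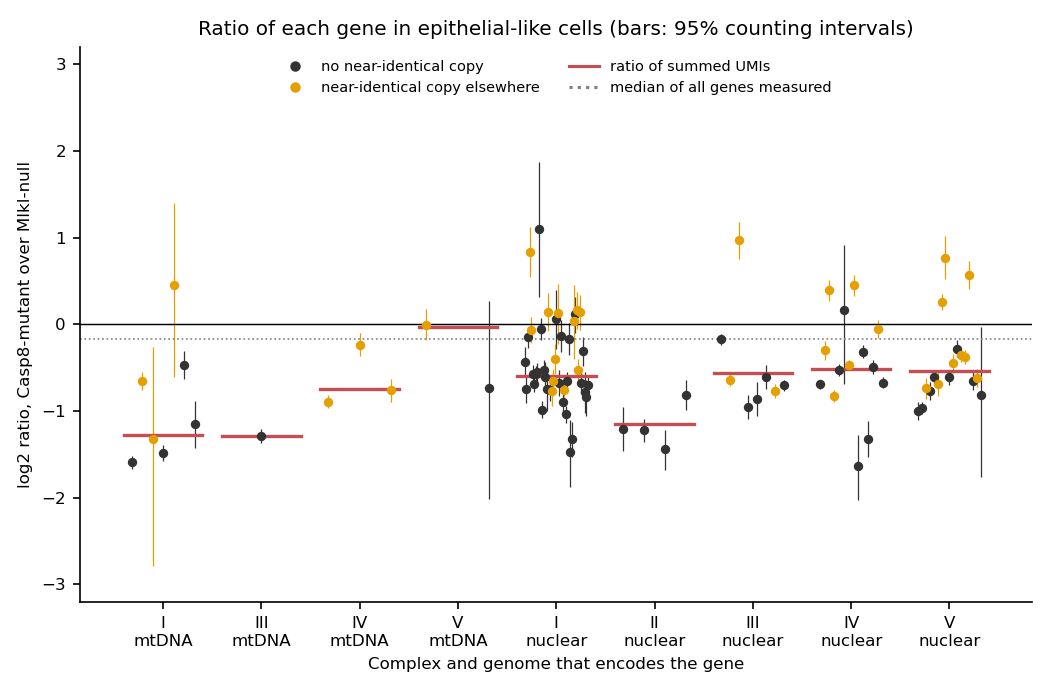
log2 ratio of Casp8-mutant over Mlkl-null for each measured gene in epithelial-like cells (y axis) by complex and encoding genome (x axis). Bars are 95% counting intervals, red lines the ratio of summed UMIs, the dotted line the median of all genes measured, and orange points genes with a near-identical copy. The 4 points of complex II all lie below the dotted line, and most points above 0 are orange.

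Many genes of the chain have processed pseudogenes or nuclear copies of mitochondrial DNA that share their 3′ end, and short 3′ reads can then be assigned to either or dropped. The last 300 bases of each gene's coding transcripts were compared with all GENCODE M21 transcripts, and a copy was a match of at least 95% identity over at least 90 bases on the same strand. This division was made after the values were seen. Of the mitochondrially encoded genes, the 6 without a copy (mt-Nd1, mt-Nd4, mt-Nd5, mt-Nd6, mt-Cytb and mt-Atp8) summed to a ratio of 0.383 (0.371 to 0.395), and the 7 with one to 0.626 (0.606 to 0.648). Adding the UMIs of the copies changed the values of some genes. mt-Co3 went from 0.591 to 0.474, mt-Co2 from 0.850 to 0.762 and mt-Atp6 from 0.997 to 0.834, the last with its copy Gm10925 counted in.

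Among the nuclear-encoded genes, 35 of 54 measured genes without a copy were lower and 1 higher, with a summed ratio of 0.638 (0.631 to 0.645). Of the 30 with a copy, 9 were lower and 3 higher, with a summed ratio of 0.761 (0.751 to 0.772). The same pattern was present over all coding genes measured: the median log2 ratio was -0.07 for 1374 genes with a copy and -0.42 for 9270 without. Over all genes measured, coding or not, 27.4% were called lower and 22.6% higher. The shares called among all coding genes with and without a copy are not given. The 3 higher genes with a copy were Uqcrb, Atp5g2 and Ndufa11b, itself a retrocopy. With copies added, Uqcrb stood at 2.18 (1.95 to 2.44) and Atp5g2 at 1.78 (1.54 to 2.05), both still above 1.5, while Ndufa11b with its parent Ndufa11 stood at 0.995 (0.921 to 1.07). Atp5l, a stalk-associated subunit gene with 11 copies in the matrix, went from 1.49 to 1.66 (1.53 to 1.80).

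The level was also taken cluster by cluster. Over the 7 epithelial-like Mlkl-null clusters with at least 50 cells the summed nuclear-encoded level ranged from 41677 to 62592 CPM, and over the 4 epithelial-like Casp8-mutant clusters from 31037 to 39072, with no overlap. The 11 Mlkl-null cells that shared a cluster with Casp8-mutant cells went the other way. In cluster 10, led by Zg16, Tff3 and Muc2, the level was 28640 CPM (26879 to 30485) in 6 Mlkl-null and 32047 (31431 to 32672) in 92 Casp8-mutant cells. In cluster 15, led by Tff2, Gpx2 and Reg3g, it was 28366 (25971 to 30922) in 5 Mlkl-null and 39072 (38683 to 39463) in 187 Casp8-mutant cells. The separate cluster 2 (81 Mlkl-null cells) shared the leading genes Fcgbp, Defa24, Spink4 and Tff3 with cluster 10. Its levels were 41677 CPM nuclear-encoded and 6787 mitochondrially encoded, above the Casp8-mutant cells of cluster 10. The lower class sum of the Casp8-mutant library and the different clusters that make up the class therefore cannot be told apart. The mitochondrially encoded level in the shared clusters was 4652 (3959 to 5431) and 3512 (3310 to 3723) in cluster 10, and 3353 (2565 to 4307) and 3911 (3789 to 4036) in cluster 15, where the intervals overlapped. Over the larger clusters the mitochondrially encoded sums overlapped, from 6787 to 14906 and from 3512 to 7174, with cluster 17 of the Casp8-mutant library above clusters 2 and 3 of the Mlkl-null library. Among the epithelial-like clusters, clusters 4 and 20, led by small nuclear RNA genes, and cluster 17 had the most nuclear RNA (90304, 77021 and 86965 CPM). Without clusters 4 and 20 the ratios were 0.682 and 0.494 for nuclear and mitochondrially encoded genes. Clusters of 1 library are cells of 1 embryo and not replicates.

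**Figure D3:**
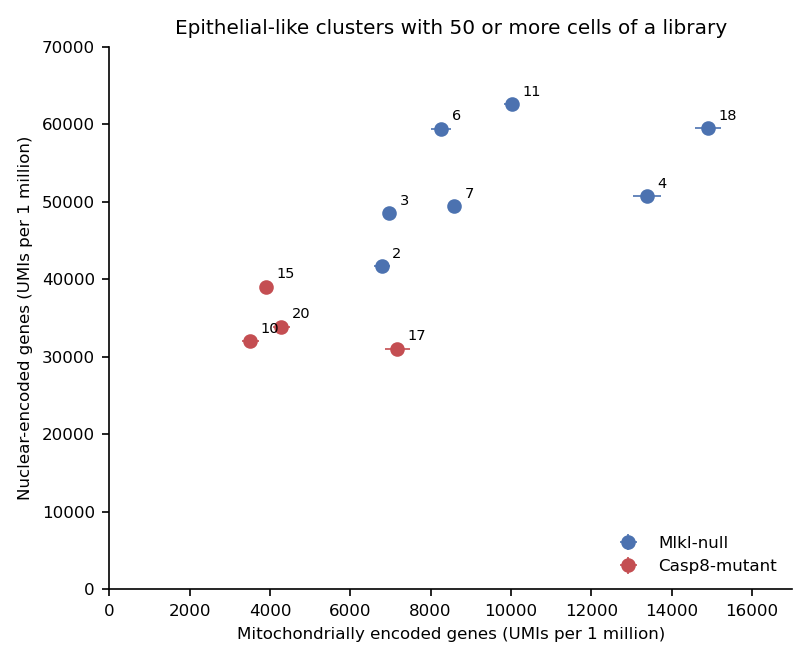
Summed level of the nuclear-encoded genes (y axis) against that of the mitochondrially encoded genes (x axis), in CPM, for each epithelial-like cluster with at least 50 cells of a library, numbered. Bars are exact Poisson intervals. The lowest of the 7 Mlkl-null clusters, at 41677 on the y axis, lies above the highest of the 4 Casp8-mutant clusters, at 39072, while the x values overlap.

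Depth differed between the libraries, so the sums were also taken within bins of UMIs per cell. In epithelial-like cells under 2000 UMIs (130 and 220 cells) the nuclear-encoded ratio was 0.592 (0.575 to 0.609) and the mitochondrially encoded ratio 0.387 (0.367 to 0.409). In cells of 3000 to 5000 UMIs (513 and 118 cells) they were 0.615 (0.605 to 0.625) and 0.446 (0.425 to 0.468). In cells of 8000 UMIs or more (105 and 41 cells) they were 0.849 (0.835 to 0.864) and 0.530 (0.503 to 0.559). Both sums were lower in Casp8-mutant cells in all 5 bins, and the nuclear-encoded difference was smallest in the deepest cells.

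Other gene groups moved in the same cells, and all levels are shares of the same total. In epithelial-like cells the 10 interferon-stimulated genes rose from 261 to 5615 CPM, nuclear RNAs such as Malat1 stood at 30983 and 40964, cytosolic ribosomal protein genes at 71202 and 100981, and haemoglobin genes, which these cells do not make, at 3069 and 10612. With ribosomal protein and interferon-stimulated genes taken out of the total, the ratios were 0.703 for nuclear and 0.491 for mitochondrially encoded genes. The part of the other groups in the result was not tested beyond this. In barcodes with most UMIs from haemoglobin, the nuclear-encoded genes stood at 7685 and 6422 CPM and the mitochondrially encoded at 920.0 and 624. Haemoglobin made up 804166 and 773333 CPM of these totals, and the barcodes hold the red cells' own RNA as well as RNA from outside them. As shares of the RNA other than haemoglobin, both sums are therefore higher than these levels. The part of such outside RNA in the epithelial-like values was not tested.

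The mix of mitochondrial transcripts also differed between the libraries. In epithelial-like cells mt-Nd1 made up 24.1% of the mitochondrially encoded UMIs in Mlkl-null and 17.0% in Casp8-mutant cells, mt-Nd4 15.3% and 11.6%, and mt-Cytb 19.4% and 16.9%. Shares moved up for mt-Co1, from 17.2% to 19.6%, for mt-Co2, from 4.05% to 7.29%, for mt-Nd2, from 8.06% to 10.8%, and for mt-Atp6, from 1.93% to 4.07%. These have a near-identical copy, while mt-Nd1, mt-Nd4 and mt-Cytb have none. mt-Nd5, also without a copy, rose from 2.86% to 4.38%. Other classes showed part of this: mt-Co2 went from 3.91% to 9.87% in myeloid-like and from 3.15% to 6.30% in stromal-like cells. mt-Nd1 went from 19.9% to 14.7% in myeloid-like cells but stood at 22.7% and 22.4% in stromal-like cells. The mitochondrial ribosomal RNAs also diverged. mt-Rnr1 had 2332 and 1088 UMIs and a ratio of 1.26 (1.17 to 1.35), and mt-Rnr2 5650 and 1131 UMIs and a ratio of 0.540 (0.506 to 0.576). Ribosomal RNAs are captured here by internal priming or short tails, and their levels are no measure of ribosome number.

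Among the named cell classes, epithelial-like cells of the Mlkl-null embryo had the highest levels of both sums; the 20 unnamed Casp8-mutant cells had a mitochondrially encoded level of 11791 CPM (10669 to 12999). The nuclear-encoded order in that library was epithelial-like (52891 CPM), endocrine-like (36783), enteric neuron-like (33799), smooth muscle-like (32157), lymphoid-like (31143), fibroblast-like (27424), pancreatic acinar-like (27081), myeloid-like (24477) and erythroid-like (15234). The intervals of enteric neuron-like, smooth muscle-like and lymphoid-like cells overlapped each other, as did those of fibroblast-like and pancreatic acinar-like cells. Among Casp8-mutant cells the epithelial-like class was also highest of the named classes at 35771, and fibroblast-like (29611) and enteric neuron-like (28324) cells followed, with overlapping intervals. The nuclear-encoded distance between epithelial-like and myeloid-like cells was thus 52891 against 24477 in Mlkl-null and 35771 against 25952 in Casp8-mutant cells. Lower levels in Casp8-mutant were not particular to epithelial-like cells. Endocrine-like cells (37 and 35) stood at 36783 and 24661 CPM for nuclear-encoded genes and at 5508 and 3190 for mitochondrially encoded genes. Both sums were also lower in enteric neuron-like, smooth muscle-like, lymphoid-like and pancreatic acinar-like cells. The nuclear-encoded sum was instead higher in fibroblast-like, myeloid-like and erythroid-like cells. In the mitochondrially encoded order of the Mlkl-null library, enteric neuron-like cells (6294) followed epithelial-like cells (9311), and erythroid-like cells (1705) were lowest. Haemoglobin made up 550133 CPM of the erythroid-like total in that library, so the last place of these cells in both orders depends on that total. Among Casp8-mutant cells the mitochondrially encoded level was 4395 CPM (4303 to 4488) in epithelial-like and 4047 (3680 to 4441) in fibroblast-like cells, with overlapping intervals.

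**Figure D4:**
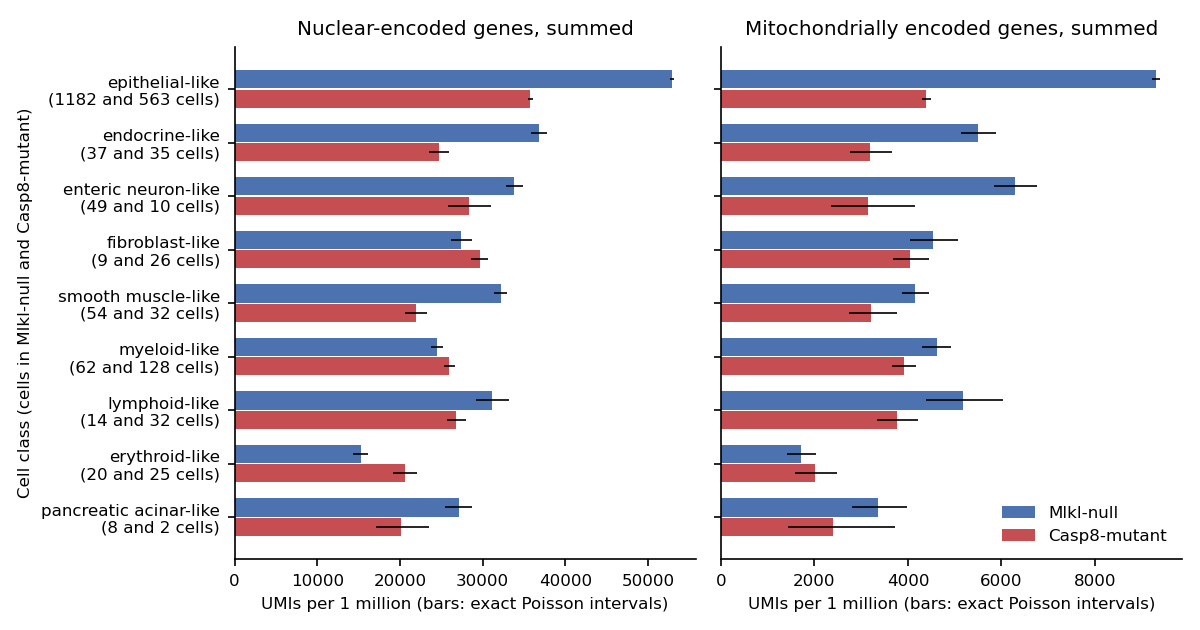
Summed level of the nuclear-encoded (left) and mitochondrially encoded genes (right), in CPM (x axes), by cell class and library (y axis, with the number of cells in each). Bars on the columns are exact Poisson intervals. Epithelial-like cells are the highest named class in both libraries, but on the right their Casp8-mutant interval overlaps that of fibroblast-like cells. The gap between libraries is small in fibroblast-like and myeloid-like cells. Endocrine-like, enteric neuron-like, smooth muscle-like and lymphoid-like cells are, like epithelial-like cells, lower in Casp8-mutant on both sides.

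In the myeloid-like class as a whole the nuclear-encoded sum did not share the direction seen in the epithelial-like class. It held 4617 UMIs in Mlkl-null and 6041 in Casp8-mutant cells, a ratio of 1.06 (1.02 to 1.10). This direction rests on cluster 14, which held 51 of the 62 Mlkl-null cells and no Casp8-mutant cell, at 23513 CPM (22763 to 24282). Within the shared cluster 19 the level was lower in the Casp8-mutant library, at 29425 (27539 to 31406) in 11 Mlkl-null and 25952 (25302 to 26615) in 128 Casp8-mutant cells. Of 75 measured genes, 11 were higher and 4 lower, against 16.5% higher and 13.5% lower of all 3213 genes measured there. Higher genes included Cox5b (21 and 54 UMIs, ratio 2.05, interval 1.24 to 3.63), Cox7c (37 and 91 UMIs, 1.98, interval 1.35 to 3.01) and Uqcr10 (118 and 223 UMIs, 1.53, interval 1.22 to 1.93). Uqcrc1 was lower here too, with 57 and 38 UMIs and a ratio of 0.543 (0.349 to 0.829). The mitochondrially encoded sum had a ratio of 0.849 (0.773 to 0.933). Within it mt-Nd1 and mt-Nd4 were lower, with ratios of 0.628 (0.497 to 0.791) and 0.580 (0.446 to 0.749), and mt-Co2 higher at 2.13 (1.43 to 3.28). Without the genes that have a copy, the mitochondrially encoded ratio in these cells was 0.648.

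In stromal-like cells the nuclear-encoded sum held 8090 and 4332 UMIs, a ratio of 0.880 (0.848 to 0.913), and 19 of 78 measured genes were lower and 4 higher, against 16.6% lower and 14.3% higher of all 3353 genes measured. The direction of the sums in this class depended on scaling: by the median of ratios the nuclear-encoded ratio was 1.02 and the mitochondrially encoded 1.03, against 0.893 (0.807 to 0.987) by the total. Complex II again had the lowest ratio, 0.401 (0.264 to 0.580) on 141 and 34 UMIs, with 3 of 4 genes lower. Atp5b had 224 and 80 UMIs with a ratio of 0.589 (0.449 to 0.761), Cox4i1 507 and 201 with 0.653 (0.551 to 0.769), and mt-Cytb 241 and 94 with 0.643 (0.500 to 0.817). The class held 9 fibroblast-like and 54 smooth muscle-like cells in Mlkl-null and 26 and 32 in Casp8-mutant, and within it the nuclear-encoded levels were 27424 and 29611 in fibroblast-like and 32157 and 21914 in smooth muscle-like cells. The change in makeup of the class and the difference between genotypes cannot be told apart in its sum.

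Genes that feed or build the chain were looked up from lists of the pathway, in epithelial-like cells, where 27.4% of all genes measured were lower and 22.6% higher. Fatty acid oxidation had the lowest ratio, with 10 of 12 genes lower and 0 higher, a median log2 ratio of -1.48 and a summed ratio of 0.306 (0.290 to 0.323). Acaa2, the last thiolase of the spiral, had 3194 and 136 UMIs and a ratio of 0.115 (0.0960 to 0.136), Hadh 3047 and 222 UMIs and 0.197 (0.171 to 0.225), and Hadha, of the trifunctional protein, 0.227 (0.182 to 0.277). The citric acid cycle had 9 of 13 lower and 0 higher, with Suclg1, of succinyl-CoA ligase, at 0.433 (0.379 to 0.491) and citrate synthase Cs at 0.847 (0.745 to 0.958). Electron carriers had 10 of 17 lower and 2 higher. Etfb and Etfdh, which pass electrons from fatty acid oxidation to ubiquinone, had ratios of 0.533 (0.485 to 0.583) and 0.404 (0.284 to 0.550), and cytochrome c, Cycs, was higher at 1.92 (1.51 to 2.43) on 174 and 124 UMIs.

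The lists for making and importing the proteins are read against the same background of 27.4% lower and 22.6% higher. Of 78 mitochondrial ribosomal protein genes, 6 were lower and 6 higher, and their summed ratio was 0.975 (0.956 to 0.994), which other scalings placed on the other side of 1. Import and outer membrane genes had 1 lower and 1 higher of 15, with a summed ratio of 0.905 that moved to 1.035 under scaling by the median of ratios. Assembly factors had 14 lower and 3 higher of 40, and chaperones and proteases 2 lower and 1 higher of 10. Among 14 genes of mitochondrial DNA upkeep and transcription, 2 were lower, including the DNA polymerase Polg at 0.281 (0.180 to 0.409), and 2 higher, Slirp at 1.64 (1.47 to 1.84) and Ssbp1 at 1.52 (1.18 to 1.94). Of 8 regulators of mitochondrial biogenesis, the coactivator Ppargc1a was lower, with 214 and 12 UMIs and a ratio of 0.157 (0.0770 to 0.270), the nuclear receptor Esrra lower at 0.593 (0.511 to 0.683), and Pprc1 higher at 2.91 (1.63 to 5.23) on 25 and 27 UMIs. Nrf1 and Gabpa were not called. Glycolysis had 5 higher and 2 lower of 14, with pyruvate kinase Pkm at 1.93 (1.75 to 2.13) and lactate dehydrogenase Ldha at 0.929 (0.880 to 0.979).

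**Figure D5:**
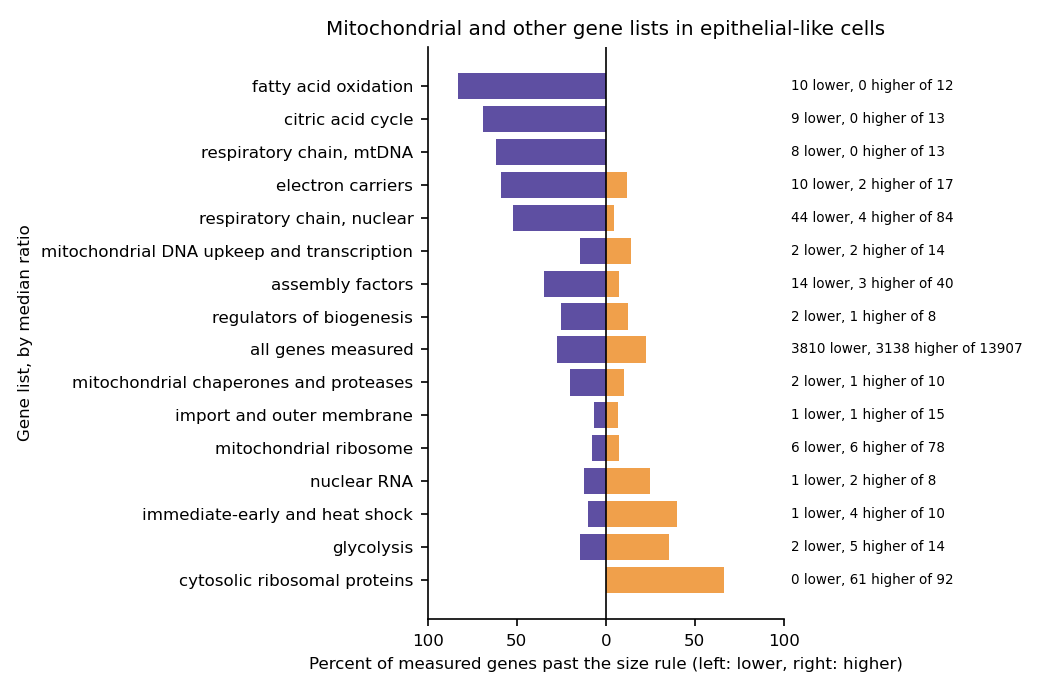
Percent of the measured genes of each list that were lower (left of 0) or higher (right of 0) in Casp8-mutant epithelial-like cells by the size rule, on the x axis, with lists ordered by median ratio on the y axis and counts at the right. Fatty acid oxidation stands at the top with 10 of 12 lower, and the mitochondrial ribosome shows 6 lower and 6 higher of 78.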

How the data were processed

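Single intestinal cells of 2 embryos, 1 per genotype, were profiled by 3′ single-cell RNA sequencing. The deposited matrices hold UMI counts per gene and barcode, not normalized. Per the submitters' processing notes, the build was mm10 and the tools included Seurat 3.0 and Cell Ranger 3.0.2, with no role stated for either. Members, lists and tests were chosen with earlier results of these data known.

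Cells under 500 genes (39 Mlkl-null and 139 Casp8-mutant) or above 20% mitochondrial UMIs, and doublets called by Scrublet (4 and 2, under 0.5% of each library), were left out. Doublets are therefore not taken as removed. Clustering used scanpy 1.11.5 with igraph 0.11.9 (2000 variable genes per library, 30 components, 15 neighbours, Leiden resolution 1), without the respiratory chain genes, other mitochondrial genes or sex-linked marker genes. Clusters were named from marker lists, by a scoring rule chosen after the clusters were seen. Epithelial-like was the default name where no class had at least 2 markers among the 10 leading genes. It also required, among other conditions, at least 3 epithelial markers each detected in at least 10% of the cluster's cells. The 10 leading genes of clusters 4, 6, 7 and 17 held no listed epithelial marker.

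UMIs were summed by library and class. Levels are UMIs per 1000000 UMIs of the class (CPM) with exact Poisson intervals, and ratios have 0.5 added to each sum and 95% conditional exact intervals (scipy 1.17.1). PCR and sampling of cells add error that these do not cover. No test was made, since each genotype is 1 embryo. The calling steps were tested on simulated data. Near-identical copies were found with BLAST 2.17.0.

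Genes named were the mitochondrially encoded ones, the 2 nuclear-encoded genes per complex with most UMIs, up to 5 higher and 5 lower with the interval bound farthest from 1, the 3 nearest to 1, and listed isoforms. Uqcrc1, Uqcrc2, Uqcrfs1, Sdha, Atp5a1, Atp5g1, Atp5g3, Atp5l, Ndufs3, Ndufs7, Ndufs8, Ndufv1 and Ndufv2 were added after their values were seen. Some items that the rule names are not reported here. Alternatives in filtering, clustering, scaling, depth and fold were tried.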

Additional observations from a re-analysis of the deposited data

Results flagged for a closer look

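The summed nuclear-encoded genes lay on opposite sides of 1 in myeloid-like and epithelial-like cells. The log2 ratio of Casp8-mutant over Mlkl-null was 0.0843873 in myeloid-like and -0.56 in epithelial-like cells. Within the clusters that contained cells of both libraries the directions were the opposite. The nuclear-encoded level was 29425 CPM in Mlkl-null and 25952 in Casp8-mutant cells of the myeloid-like cluster 19, 28640 and 32047 in the epithelial-like cluster 10, and 28366 and 39072 in the epithelial-like cluster 15, on 11, 6 and 5 Mlkl-null cells. With 1 embryo per genotype this difference between classes was not tested.

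The 9 genes left out for a pseudogene mark in their symbol had 5376 UMIs in Mlkl-null and 2586 in Casp8-mutant epithelial-like cells, a ratio of 1.2979 (1.24 to 1.36), above 1 while the summed nuclear-encoded genes were below it. The mark alone decided, and whether each gene is a pseudogene was not checked. Of them 2 were higher and 0 lower, against 22.6% higher and 27.4% lower of all genes measured in these cells. They are not part of the comparisons above.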

How the results depend on the processing

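No paired analysis was possible because each genotype is 1 embryo and the labels give no replicate numbers. In epithelial-like cells both sums stayed below 1 under every alternative run. The mitochondrially encoded ratio was 0.4878 with no cell filter, 0.4579 with at least 1000 genes per cell, 0.4855 with doublets kept, 0.5515 at Leiden resolution 0.5, 0.5395 scaled by the median of ratios, 0.4314 with cells thinned to 2000 UMIs and 0.4842 as a mean over cells. The nuclear-encoded ratio was 0.7008 with at least 1000 genes, 0.5986 at resolution 0.5, 0.7729 by the median of ratios, 0.6596 thinned and 0.6164 as a mean over cells. Its median log2 ratio was -0.7135 at resolution 0.5, where the class held 1179 and 371 cells, and -0.4136 by the median of ratios. Lower calls fell to 17 nuclear-encoded genes by the median of ratios, and to 9 nuclear-encoded and 5 mitochondrially encoded genes with a 2-fold limit. Higher nuclear-encoded calls were 2 at resolution 0.5 and 1 with the 2-fold limit. No share over all genes is given for these settings, so these counts have no background beside them. Of the lower genes, 17 of 44 nuclear-encoded and 5 of 8 mitochondrially encoded kept their call in all 13 settings compared gene by gene, and of the higher genes Uqcrb and Ndufa11b did. The 2-fold limit and the mean over cells were not among these 13.

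Alternatives chosen after seeing the data gave, for the mitochondrially encoded and nuclear-encoded ratios, 0.3832 and 0.638 without genes that have a copy (4 mitochondrially encoded genes lower and 1 nuclear-encoded higher), 0.4405 and 0.6079 in cells of 2000 to 5000 UMIs, 0.4937 and 0.6822 without clusters led by small nuclear RNA, and 0.4906 and 0.7029 scaled without ribosomal protein and interferon-stimulated genes.

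In myeloid-like cells the nuclear-encoded ratio was 1.136 with at least 1000 genes, 1.154 thinned, 1.011 without genes that have a copy and 1.146 in cells of 2000 to 5000 UMIs, and the mitochondrially encoded ratio 0.6478 without genes that have a copy. Cells numbered 57 and 41 with at least 1000 genes, 54 and 38 thinned, and 52 and 37 at 2000 to 5000 UMIs. In stromal-like cells the direction reversed. The nuclear-encoded ratio was 1.017 and the mitochondrially encoded 1.033 by the median of ratios, and the latter 1.114 in cells of 2000 to 5000 UMIs. Other stromal-like values kept the direction: nuclear-encoded 0.9163 with at least 1000 genes, 0.7452 thinned, 0.7629 as a mean over cells, 0.8329 without genes that have a copy and 0.7111 in cells of 2000 to 5000 UMIs, and mitochondrially encoded 0.7397 without genes that have a copy. Stromal-like cells numbered 56 and 24 with at least 1000 genes, 44 and 18 thinned, and 36 and 11 at 2000 to 5000 UMIs. In these 3 settings both classes held under 50 Casp8-mutant cells, the minimum set for comparing a class.

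Of single genes and lists, Atp5g1 (0.8883), Cox5b (0.9677) and cytosolic ribosomal proteins (0.9499) fell below 1 at resolution 0.5. Ndufa11 (1.03), Uqcr10 (1.013), the import list (1.035) and the mitochondrial ribosome (1.114) rose above 1 by the median of ratios. The mitochondrial ribosome also stood at 1.022 with at least 1000 genes and at 1.014 scaled without ribosomal protein and interferon-stimulated genes. Among the values that moved by over 1.5 times were Ndufa5 (0.6377), Atp5g2 (1.059) and Ndufs3 (0.6663) at resolution 0.5, Ndufa4l2 (3.558) and mt-Atp8 (1.734) with thinned cells, and Ndufs1 (0.2243), Ndufs3 (0.6621) and mt-Atp8 (1.268) in cells of 2000 to 5000 UMIs. The causes were not tested. Depth limits mt-Nd3, mt-Nd4l, mt-Atp8, Ndufa4l2 and Cox6b2.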
